A study of Mus musculus with 207 samples.

Results

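The set described here holds 9 genes of mature B cells, Ighm, Ighd, Cd79a, Cd79b, Ms4a1, Pax5, Fcer2a, Cr2 and Cd22, read in the jejunum of mice fed 6 diets. The members were taken by symbol, through their Ensembl identifiers, from a table of 55536 genes, and all 9 were found there. All 9 also passed the filter on low counts that left 16992 genes for testing. The jejunum, the middle part of the small intestine, gave 70 RNA-seq libraries from 70 C57BL/6 mice, 1 library for each mouse. Every diet carries the protein level 30 in its label and no unit, and the diets differ in protein source (CAS or WPI, which in this study are casein and whey protein isolate) and in the fat level 20, 40 or 55, also without a unit. CAS was fed to 11 mice at FAT-20, 12 at FAT-40 and 11 at FAT-55, and WPI to 12 mice at each fat level. The labels used here give neither age nor sex, and they name no transgene, deletion or drug. Animal identifiers share a stem within sets of 2 or 3 mice, which makes 24 stems with 4 in each diet. The labels do not explain the stem, and no stem occurs in more than 1 diet.

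A mature naive B cell carries IgM and IgD on its surface, and each of these is joined to a pair of signalling chains that pass on the binding of antigen. Surface proteins around this receptor set how strongly it fires, and a transcription factor keeps the cell on the B cell path until it turns into an antibody-secreting plasma cell, which loses most of these genes. In the small intestine such B cells are gathered in lymphoid follicles, namely Peyer's patches and smaller isolated follicles, while the villi between follicles hold mainly IgA plasma cells.

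In order of role, Ighm and Ighd encode the constant regions of the IgM and IgD heavy chains and lie side by side on chromosome 12 (build GRCm38, minus strand; Ighm at chr12:113418558-113422730 and Ighd at chr12:113406604-113416324). Cd79a (chr7:24897381-24902197, plus strand) and Cd79b (chr11:106311341-106314762, minus strand) encode the signalling chains of the receptor. Cr2 (chr1:195136811-195176716, minus strand) encodes the complement receptors CD21 and CD35, which lower the threshold of the receptor, and Cd22 (chr7:30865402-30880342, minus strand) an inhibitory lectin. Fcer2a (chr8:3681737-3694175, minus strand) encodes CD23, the low-affinity receptor for IgE that is typical of follicular B cells, and Ms4a1 (chr19:11249675-11266241, minus strand) encodes CD20. Pax5 (chr4:44524757-44710487, minus strand) encodes the transcription factor of B cell identity. Pax5 and Cd22 overlap annotated genes on the other strand, 5730488B01Rik and Gm12462 for Pax5 and Gm29439 for Cd22, and whether reads were counted by strand is not given in the sources used here.

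Promoter sequence was at hand for 5 of the 9 members (Cr2, Pax5, Cd79a, Cd22 and Fcer2a, with 7 start sites in all) from RefSeq, build GRCm38.p6. The 250 bases before each start were searched on both strands for binding motifs of B cell transcription factors, chosen with the data in view: the E-box CAGGTG, the EBF1 palindrome (TCCC and GGGA with any 2 bases between), the core GAGGAA of PU.1 and the octamer ATGCAAAT. Because these members moved together, the promoters with a match are shown, 5′ to 3′ on the strand of the gene, with the matches in capitals (a match on the opposite strand reads as its reverse complement), and cut back where the GENCODE M21 annotation places an exon. The coordinates are chr7:24897247-24897380 (plus strand), chr1:195176720-195176969 (minus strand), chr8:3690862-3691111 (minus strand, one of its 3 starts) and chr7:30879029-30879176 (minus strand).
Cd79a: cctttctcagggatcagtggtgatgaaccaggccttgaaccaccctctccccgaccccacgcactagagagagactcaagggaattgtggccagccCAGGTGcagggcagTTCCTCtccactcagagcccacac
Cr2: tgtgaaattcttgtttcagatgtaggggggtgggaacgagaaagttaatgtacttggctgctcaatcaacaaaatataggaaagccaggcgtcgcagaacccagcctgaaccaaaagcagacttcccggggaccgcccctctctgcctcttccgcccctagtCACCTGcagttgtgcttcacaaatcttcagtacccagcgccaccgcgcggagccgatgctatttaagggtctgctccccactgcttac
Fcer2a: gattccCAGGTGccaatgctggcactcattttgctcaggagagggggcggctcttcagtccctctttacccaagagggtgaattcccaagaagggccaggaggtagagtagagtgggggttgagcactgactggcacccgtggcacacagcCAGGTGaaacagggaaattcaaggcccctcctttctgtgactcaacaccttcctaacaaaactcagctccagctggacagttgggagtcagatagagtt
Cd22: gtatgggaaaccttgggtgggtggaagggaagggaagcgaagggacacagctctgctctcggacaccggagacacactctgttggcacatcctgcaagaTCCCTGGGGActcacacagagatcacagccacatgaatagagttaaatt
The E-box was found at 4 of the 7 starts, those of Cd22 (in the stretch not printed), Cd79a and Cr2 and 1 of the 3 of Fcer2a, and in 17.2% of all 32851 promoters of the same length. The EBF1 palindrome was found at 1 of 7 starts, that of Cd22, and in 0.779% of all promoters. The PU.1 core was found at 1 of 7 starts, that of Cd79a, 3′ of its E-box, and in 23.3% of all promoters. None of the 7 starts held the octamer, which 1.601% of all promoters hold. These are matches of letters and no record of binding.

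The libraries held 17.5 to 23.8 M reads on genes. Levels are given as CPM, reads scaled to a common library size, after scaling by the trimmed mean of M-values (TMM). Genes of absorptive enterocytes marked every library as small intestine: 9 of them summed to between 16480 and 42900 CPM. B cell genes were unevenly spread over the libraries, and 13 of the 70 stood apart. These 13 held at least 8 CPM of Cd37, a leukocyte tetraspanin gene that is high in B cells and is not a member, while the other 57 reached at most 5.53 CPM. The gene and the boundary of 8 CPM were chosen after the values were seen. Of the 13, 2 of 11 were on CAS FAT-20, 3 of 12 on CAS FAT-40 and 4 of 11 on CAS FAT-55, and 2 of 12 were on WPI FAT-20, 2 of 12 on WPI FAT-40 and 0 of 12 on WPI FAT-55. The 9 on CAS held 16.7 to 49.6 CPM of Cd37 and the 4 on WPI held 10.9 to 11.4 CPM. They came from 7 of 12 stems on CAS and 4 of 12 on WPI, and no stem consisted of such libraries alone. In pieces of whole tissue, fewer B cells and less RNA per B cell cannot be told apart, and whether these 13 pieces held a lymphoid follicle was not recorded in the labels.

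**Figure D1:**
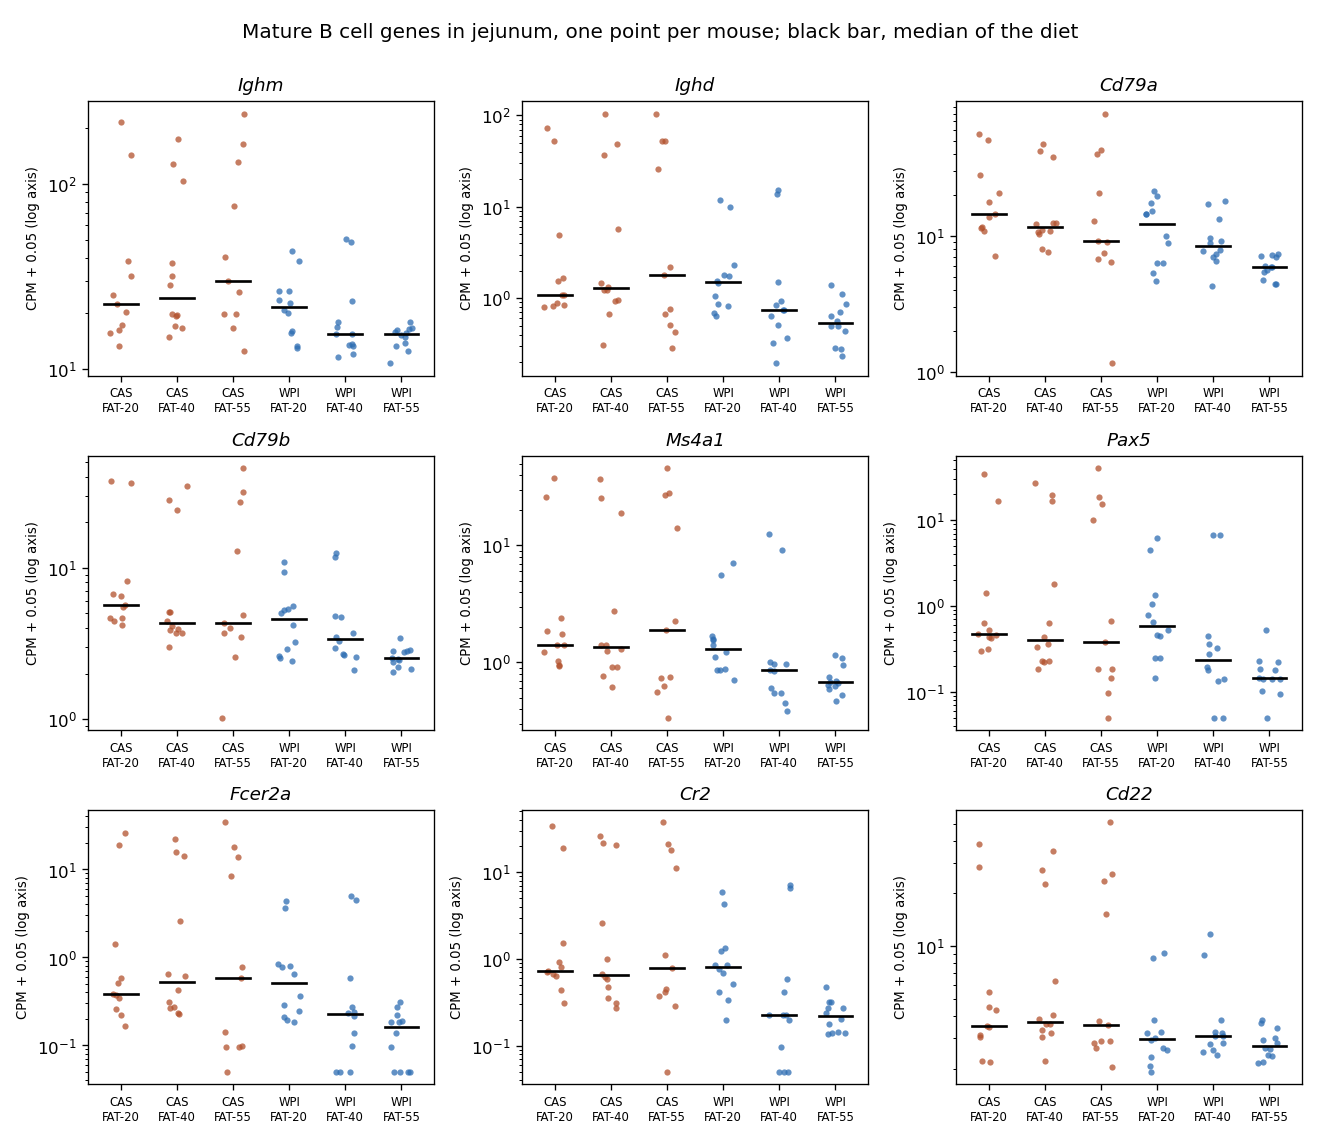
Level of each of the 9 genes in every jejunum library (CPM + 0.05, log axis), by diet, with CAS in orange and WPI in blue; each point is 1 mouse and the black bar is the median of the diet. In each CAS diet 2 to 4 libraries lie far above the rest, in WPI FAT-20 and FAT-40 2 libraries each lie above the rest at lower levels, and WPI FAT-55 has none.

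All 9 genes fell on WPI against CAS when averaged over the 3 fat levels, and 9 of 9 were called lower at an adjusted p under 0.05, where 8.83% of all tested genes were. Their median log2 fold change was -2.50, against -0.01 over all genes. The members were chosen with earlier results of these data known and moved together from library to library, so the 9 calls are not independent. The smallest fall was that of Cd79a and the largest that of Fcer2a. The mean level was 2.24 times (Cd79a) to 8.09 times (Ighd) as high on CAS as on WPI, but the median level only 1.23 times (Cd22) to 2.70 times (Cr2). With voom and the stem as a random effect, calls were lost for 6 of the 9 genes and 3 of 9 were called (Ighm, Cd79a and Cd79b). That fit called 9.25% of all genes in either direction, against 15.34% in either direction with edgeR.

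Over the 57 libraries that remain without the 13, the median log2 fold change of the 9 genes was -0.55, against -0.002 over all genes, and 4 of 9 (Ighm, Cd79b, Ms4a1 and Cr2) passed the threshold, where 2.91% of all genes were called lower. The 13 were chosen by Cd37, whose level follows the members (correlation 0.96 over the 70 libraries), and 9 of them are on CAS and 4 on WPI. A smaller difference was therefore fixed by that choice, and this and every value over the 57 libraries is a description of them, not a test of the members.

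Among the receptor chains, Ighm was the most abundant member per length. Its lowest, median and highest levels were 13.2, 22.4 and 215.8 CPM on CAS FAT-20, 14.9, 24.1 and 175.4 CPM on CAS FAT-40, and 12.5, 30 and 240.2 CPM on CAS FAT-55. On WPI they were 12.9, 21.7 and 43.1 CPM at FAT-20, 11.5, 15.4 and 50.2 CPM at FAT-40, and 10.7, 15.4 and 17.8 CPM at FAT-55. The low and middle libraries of CAS and WPI overlapped, and 9 of 34 CAS libraries lay above the highest of the 36 WPI libraries. The averaged log2 fold change of Ighm, WPI minus CAS, was -1.55 ± 0.26 (SE; edgeR adjusted p = 9.05e-06); over the other 57 libraries it was -0.47.

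Ighd, which marks naive B cells more narrowly than Ighm, had a far lower base. On CAS its lowest, median and highest levels were 0.753, 1.03 and 71.9 CPM at FAT-20, 0.258, 1.23 and 104.4 CPM at FAT-40, and 0.232, 1.76 and 103.5 CPM at FAT-55. On WPI they were 0.595, 1.45 and 11.9 CPM at FAT-20, 0.144, 0.690 and 15.03 CPM at FAT-40, and 0.181, 0.481 and 1.34 CPM at FAT-55. The WPI median was above that of CAS at FAT-20 and below it at FAT-40 and FAT-55, and at FAT-55 all 12 WPI libraries lay below the CAS median. Averaged over fat, Ighd had a log2 fold change of -3.30 ± 0.57 (edgeR adjusted p = 1.87e-05); over the other 57 libraries it was -0.70.

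Cd79a, the signalling chain that plasma cells also keep, had the lowest ratio of highest to median level among the members, 8.13 over the 70 libraries. Its lowest, median and highest levels on CAS were 7.09, 14.5 and 56.7 CPM at FAT-20, 7.61, 11.6 and 47.7 CPM at FAT-40, and 1.12, 9.16 and 79.7 CPM at FAT-55. On WPI they were 4.63, 12.3 and 21.5 CPM at FAT-20, 4.28, 8.41 and 18.2 CPM at FAT-40, and 4.39, 5.89 and 7.31 CPM at FAT-55. The diets overlapped widely at FAT-20 and FAT-40, and at FAT-55 all 12 WPI libraries lay below the CAS median. Cd79a had an averaged log2 fold change of -1.22 ± 0.22 (edgeR adjusted p = 3.84e-05); over the other 57 libraries it was -0.42.

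Its partner chain Cd79b ranged from 0.976 to 45.5 CPM on CAS, with a median of 4.74 CPM, and from 2.01 to 12.4 CPM on WPI, with a median of 2.83 CPM. Of the 36 WPI libraries, 30 lay below the CAS median of their fat level, the highest such count among the 9 genes, in which it ran from 25 (Pax5) to 30. The averaged log2 fold change of Cd79b was -1.55 ± 0.27 (edgeR adjusted p = 2.77e-05); over the other 57 libraries it was -0.42.

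Of the surface proteins that tune the receptor, Cr2 and Cd22 act in opposite directions and fell by unequal amounts. Cr2 had lowest, median and highest levels of 0.264, 0.681 and 33.6 CPM on CAS FAT-20, 0.220, 0.598 and 26.4 CPM on CAS FAT-40, and 0, 0.735 and 37.3 CPM on CAS FAT-55. On WPI they were 0.146, 0.757 and 5.80 CPM at FAT-20, 0, 0.175 and 7.06 CPM at FAT-40, and 0.0872, 0.172 and 0.431 CPM at FAT-55. On FAT-20 the medians of the protein sources lay close together, and on the other fat levels the WPI medians lay below those on CAS. The averaged log2 fold change of Cr2 was -3.21 ± 0.57 (edgeR adjusted p = 2.68e-05); over the other 57 libraries it was -1.13.

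The inhibitory receptor Cd22 ranged from 1.98 to 50.8 CPM on CAS, with a median of 3.53 CPM, and from 1.86 to 11.7 CPM on WPI, with a median of 2.86 CPM. Its lowest levels were alike on both protein sources, and its medians were the closest of the 9 genes. For Cd22 the averaged log2 fold change was -1.55 ± 0.29 (edgeR adjusted p = 7.78e-05); over the other 57 libraries it was -0.25.

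Fcer2a, the marker of follicular B cells, was close to absent from most libraries and had no read in 8 of the 70. On CAS its lowest, median and highest levels were 0.117, 0.332 and 25.7 CPM at FAT-20, 0.176, 0.471 and 22.0 CPM at FAT-40, and 0, 0.531 and 34.2 CPM at FAT-55. On WPI they were 0.136, 0.457 and 4.36 CPM at FAT-20, 0, 0.175 and 4.92 CPM at FAT-40, and 0, 0.112 and 0.259 CPM at FAT-55. A single library held 53.2% of the CAS FAT-20 total of Fcer2a, so the means of these diets rest on few mice. The averaged log2 fold change was -3.51 ± 0.62 (edgeR adjusted p = 2.38e-05); over the other 57 libraries it was -1.03.

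Ms4a1, which encodes CD20, ranged from 0.288 to 45.7 CPM on CAS, with a median of 1.37 CPM, and from 0.337 to 12.4 CPM on WPI, with a median of 0.814 CPM. Its averaged log2 fold change was -2.50 ± 0.46 (edgeR adjusted p = 5.16e-05); over the other 57 libraries it was -0.55.

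Pax5, the identity factor, was the member with the lowest mean per length and had no read in 4 libraries. On CAS its lowest, median and highest levels were 0.251, 0.416 and 34.4 CPM at FAT-20, 0.132, 0.349 and 27.1 CPM at FAT-40, and 0, 0.327 and 40.6 CPM at FAT-55. On WPI they were 0.0948, 0.537 and 6.16 CPM at FAT-20, 0, 0.185 and 6.74 CPM at FAT-40, and 0, 0.0936 and 0.475 CPM at FAT-55. At FAT-20 the WPI median was thus above the CAS median, while the highest library was on CAS. The averaged log2 fold change was -3.30 ± 0.62 (edgeR adjusted p = 6.54e-05); over the other 57 libraries it was -0.61.

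**Figure D2:**
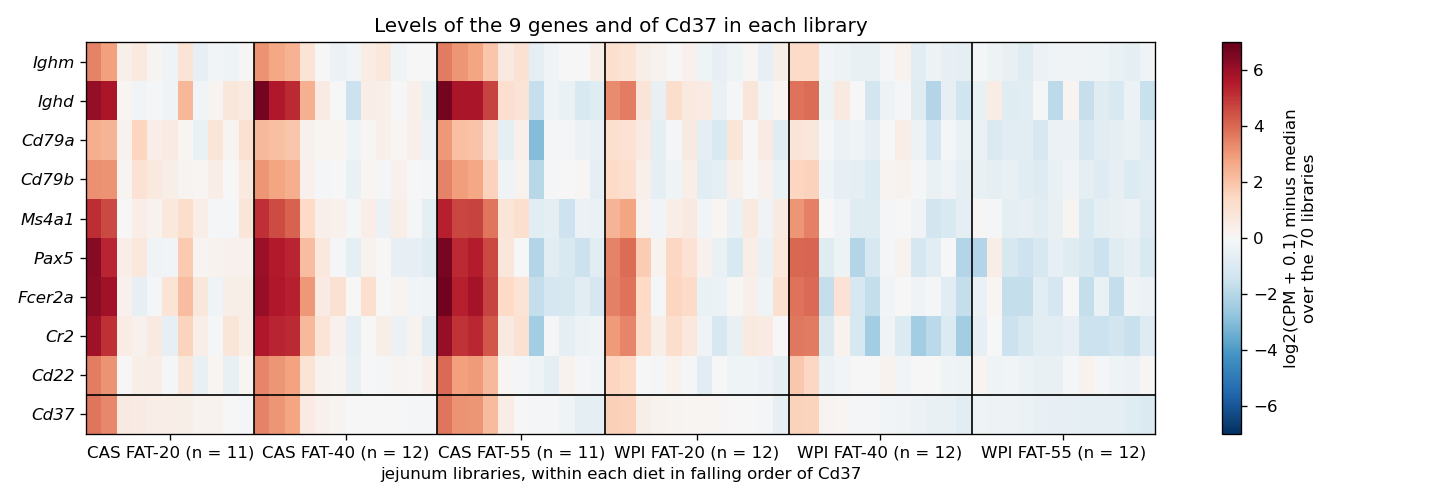
Levels of the 9 genes and of Cd37 in all 70 jejunum libraries, as log2(CPM + 0.1) minus the median of the gene over the libraries (colour), with the diets side by side and the libraries of a diet in falling order of Cd37. The same columns are red for all 9 genes: 2 on CAS FAT-20, 3 on CAS FAT-40 and 4 on CAS FAT-55, with paler columns, 2 each, on WPI FAT-20 and WPI FAT-40 and none on WPI FAT-55.

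For each of the 9 genes, 9 of the 34 CAS libraries lay above the highest WPI library. For 8 genes these were the 9 CAS libraries with at least 8 CPM of Cd37, and for Cd79a 8 of them and 1 other. The 57 libraries with less Cd37 held 52.1% of all reads of Cd79a and 7.65% of those of Pax5, the highest and the lowest share among the members. On CAS, Fcer2a ran from 8.31 to 34.2 CPM in the 9 libraries and on WPI from 3.57 to 4.92 CPM in the 4. Cr2 ran from 10.98 to 37.3 CPM in the 9 and from 4.21 to 7.06 CPM in the 4. For Cd79a the ranges met, at 20.9 to 79.7 CPM in the 9 and 17.1 to 21.5 CPM in the 4. Since these libraries were picked by a gene of B cells, the values describe them and were not tested.

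The order of the members per length also differed between libraries. By mean CPM per kilobase of exon it was Ighm (20.1), Cd79a (10.2), Cd79b (5.33), Ighd (4.94), Cd22 (1.35), Fcer2a (0.947), Ms4a1 (0.809), Cr2 (0.455) and Pax5 (0.390). Cd79a lay above Cd79b, and Ms4a1 above Cr2, in all 70 libraries. Ighd lay above its lower neighbour Cd22 in 30 of 70 libraries only, including all 13 with high Cd37. Fcer2a lay above Ms4a1 in 17 of 70, including 11 of those 13. Cd79b lay above Ighd in 61 of 70 libraries but in only 4 of the 13. The usual order of these neighbours was thus not the same in the 13 as over all 70 libraries. By median CPM per kilobase, Ighd stood at 0.474 and Cd22 at 0.620.

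At the single fat levels the fitted differences all pointed the same way, but the 9 genes were called at FAT-55 alone. At FAT-20, 0 of 9 were called lower by edgeR, where 3.57% of all genes were, although 9 of 9 had an unadjusted p under 0.05; DESeq2 also called 0. At FAT-40, 0 of 9 were called lower, where 0.294% of all genes were, again with 9 of 9 at an unadjusted p under 0.05 and 0 by DESeq2. At FAT-55, 9 of 9 were called lower, where 2.81% of all genes were, with a median log2 fold change of -4.00 against -0.02 over all genes.

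The log2 fold changes at FAT-55 ran from -1.86 ± 0.39 for Cd79a (edgeR adjusted p = 0.0022) through -4.00 ± 0.86 for Ms4a1 (adjusted p = 0.00244) to -6.01 ± 1.26 for Fcer2a (adjusted p = 0.00201). For 7 of the 9 genes (all but Cd22 and Pax5), each of the 12 WPI libraries lay below the CAS median at this fat level, and for Pax5 11 and for Cd22 10 did. The summed level of the 9 genes ran from 22.4 to 33.2 CPM over the 12 WPI FAT-55 libraries, with a median of 27.8 CPM. On CAS FAT-55 it ran from 17.8 to 677.5 CPM, with a median of 49.4 CPM. The lowest and most even set of libraries was thus WPI FAT-55, though the single lowest sum was on CAS.

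The calls at FAT-55 differed between fits. Of the 13 libraries with high Cd37, 4 were on CAS FAT-55 and 0 on WPI FAT-55, so leaving them out takes away high values on 1 side only. In that fit edgeR called 0 of 9 genes at FAT-55, where 0.378% of all genes were called lower, and 3 of 9 (Ighm, Cd79b and Cr2) had an unadjusted p under 0.05. The library CAS FAT-55 replicate 7 had the highest sum of the 9 genes: without it alone the fold changes were -5.27 for Fcer2a, -5.04 for Pax5, -4.76 for Cr2 and -4.54 for Ighd, and Cd22 was no longer called (-1.60, edgeR adjusted p = 0.0733). Without all 13, the log2 fold changes at FAT-55 ran from -0.06 for Cd22 to -1.25 for Cr2. When the reads of mice with the same stem were summed, 0 of 9 were called at FAT-55 (adjusted p from 0.0966 to 0.181) with fold changes much as before, and 0.328% of all genes were called in either direction. With limma on log2 CPM, 1 of 9 (Ighm, -1.55 ± 0.41, adjusted p = 0.0256) was called, where 2.05% of all genes were. The same limma fit called 9 of 9 for the averaged comparison, where 14.1% of all genes were called, and sums by stem also called 9 of 9 there, where 6.3% were. DESeq2 called 9 of 9 in the averaged comparison, where 13.3% of all genes were called, and 9 of 9 at FAT-55, where 3.89% were. With voom and the stem as a random effect, 0 of 9 were called at FAT-55, where 0.636% of all genes were. With voom and library quality weights, 5 of 9 were called in the averaged comparison, where 12.9% were. At FAT-55 that fit called 0 of 9, where 2.5% were. From the sums by stem on, the shares in this paragraph are of genes called in either direction. By edgeR such shares were 15.34% averaged over the fat levels and 3.702% at FAT-55.

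**Figure D3:**
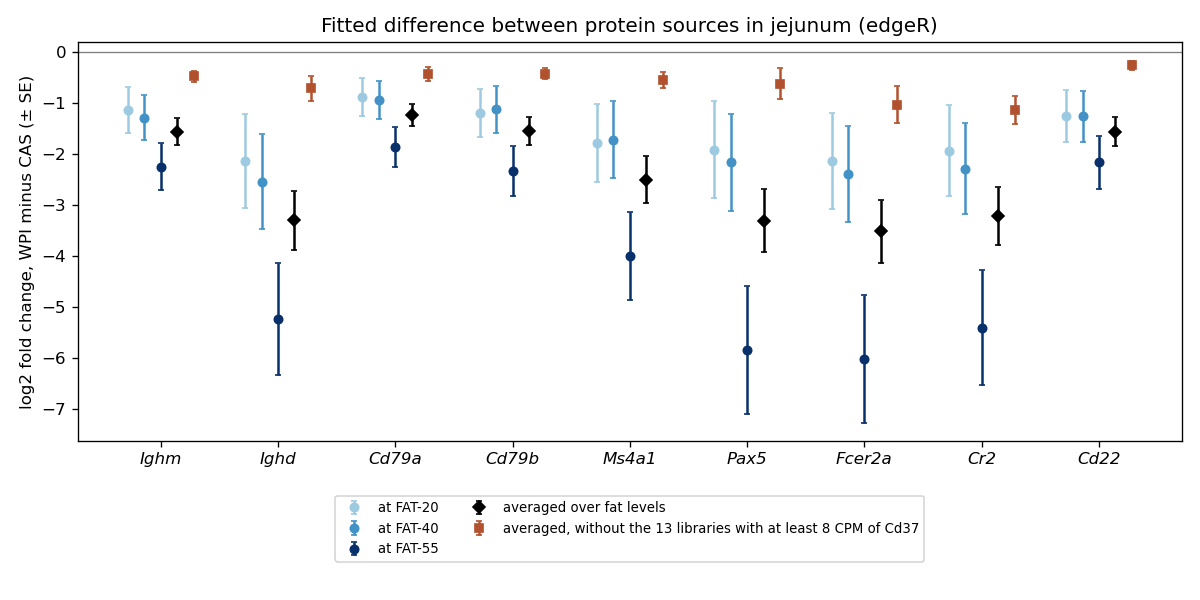
Fitted log2 fold change, WPI minus CAS, of each of the 9 genes (edgeR; bars, SE) at each fat level, averaged over the fat levels, and averaged without the 13 libraries with at least 8 CPM of Cd37. Every point lies below 0; the values at FAT-55 run from -1.86 to -6.01, and over the other 57 libraries the averaged values run from -0.25 to -1.13, a description since the 13 were chosen by a gene that follows the members.

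The difference between fat levels was not shown to depend on the protein source. As a response to FAT-55 over FAT-20, the gap of WPI from CAS was -0.90 (Cd22) to -3.93 (Pax5) on the log2 scale, but edgeR called 0 of 9 (adjusted p from 0.708 to 0.92), and 0% of all genes were called in either direction; 4 of 9 had an unadjusted p under 0.05 and DESeq2 called 0. For FAT-40 over FAT-20, 0 of 9 were called (0 at an unadjusted p under 0.05, 0 by DESeq2), where 0.0118% of all genes were.

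On CAS alone, fat level moved none of the 9 genes past the threshold. From FAT-20 to FAT-40, 0 of 9 were called, where 25.1% of all genes were called in either direction, with log2 fold changes from -0.24 (Cd79a) to 0.44 (Ighd). From FAT-20 to FAT-55, 0 of 9 were called, where 27.7% were, with log2 fold changes from -0.04 (Cd79a) to 0.81 (Ighd). From FAT-40 to FAT-55 the numbers were 0 of 9 and 0.0294%. In each of these 3 comparisons 0 of 9 had an unadjusted p under 0.05 and DESeq2 called 0. The standard errors of 0.38 to 0.91 in the first 2 comparisons set how small a change could have been seen.

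On WPI, 2 of 9 genes were called lower at FAT-55 than at FAT-20, where 16.6% of all genes were called lower. These were Cd79a, at a log2 fold change of -1.03 ± 0.38 (edgeR adjusted p = 0.0342), and Pax5, at -3.29 ± 1.31 (adjusted p = 0.0467). Cr2 (-2.86 ± 1.16, adjusted p = 0.0524) and Fcer2a (-3.23 ± 1.34, adjusted p = 0.0582) lay just outside. The count was 0 of 9 with no filter on low counts, sums by stem, limma with a trend and both voom fits, one of which has the stem as a random effect, and it was 5 with DESeq2. Over the 57 libraries, from which 2 of WPI FAT-20 and 0 of WPI FAT-55 are missing, 7 of 9 passed the threshold, where 17.4% of all genes were called lower; Cr2 was then at -1.81 and Cd22 at 0.04. Leaving out single libraries moved the count from 0 (without WPI FAT-20 replicate 1 or 7) to 4 (without WPI FAT-20 replicate 3 or 10).

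Markers of other cells and tissues moved in the same comparison of FAT-55 with FAT-20 on WPI, and their part in the members' change was not tested. Called lower were 10 of 10 smooth muscle genes (median log2 fold change -1.16), 5 of 5 red blood cell genes (-1.09), 5 of 7 fat cell genes (-4.97), 2 of 2 ileum genes (-6.07) and 9 of 14 plasma cell genes (-0.59). The ileum gene Fabp6 had a median of 0.522 CPM on WPI FAT-20, but 177.4 CPM in replicate 1 and 281.8 CPM in replicate 9. Its mean on that diet thus rests on few mice. On CAS, 8 of 10 smooth muscle, 0 of 5 red blood cell, 4 of 7 fat cell, 0 of 2 ileum and 11 of 14 plasma cell genes were called lower at FAT-55 than at FAT-20, where 13.3% of all genes were, while 0 of 9 members were.

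For FAT-40 against FAT-20 on WPI, 0 of 9 were called, where 25.8% of all genes were called in either direction, 0 had an unadjusted p under 0.05 and DESeq2 called 0. For FAT-55 against FAT-40 on WPI, 0 of 9 were called, where 0.653% were, 5 of 9 had an unadjusted p under 0.05 and DESeq2 called 0. The comparisons between diets share samples, so their counts are not independent.

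The base level outside the 13 libraries differed in kind between the members. Ighm stayed between 10.7 and 40.4 CPM there, Cd79a between 1.12 and 27.99 CPM and Cd22 between 1.86 and 6.26 CPM, while Fcer2a reached at most 2.56 CPM and Pax5 at most 1.76 CPM. In these 57 libraries the log2 level of Cd79a followed that of Igha, the IgA heavy chain of intestinal plasma cells. The Pearson correlation was 0.97, and for Cd79b it was 0.91. Diet means were not subtracted for the correlations with Igha, so differences between diets are part of them. The correlation with Igha was 0.43 for Ighm, 0.37 for Fcer2a and 0.27 for Cd22 over the same 57 libraries. Over all 70 libraries it was 0.72 for Cd79a and 0.32 for Fcer2a. These are descriptions over libraries that share diets and stems.

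**Figure D4:**
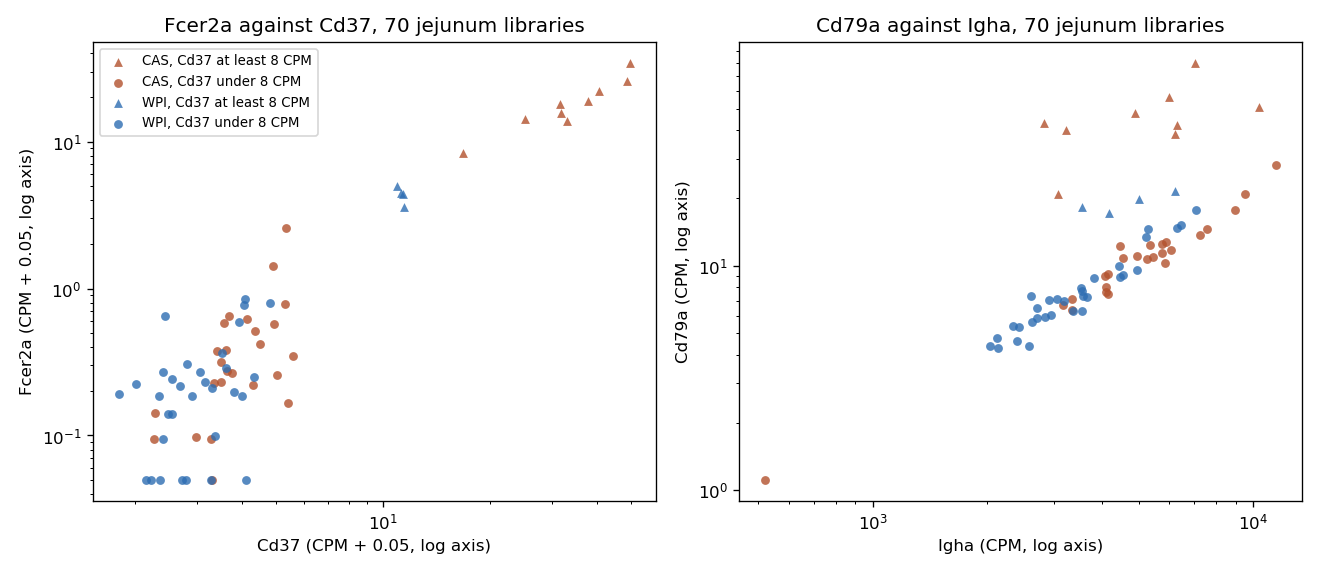
Left, Fcer2a against Cd37 in the 70 jejunum libraries (CPM + 0.05, log axes); right, Cd79a against Igha (CPM, log axes); triangles mark the 13 libraries with at least 8 CPM of Cd37, orange CAS and blue WPI. Fcer2a and Cd37 are both highest in the 13, while Cd79a follows Igha in the other 57 libraries and lies above that band in the 13.

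The members moved together from library to library. Over the 36 pairs of members, the Pearson correlation of log2 levels ran from 0.81 to 0.97 (median 0.93) over 70 libraries. Over the 57 libraries it ran from 0.31 to 0.91 (median 0.56). Diet means were not subtracted for these pairs, so differences between diets are part of the values. Likeness to the mean of the members, in contrast, was taken after diet means were subtracted. Among the genes that are not members, the 10 most like the mean of the members over the 70 libraries included Chst3 (0.97), H2-Ob (0.97), Siglecg (0.97), Blk (0.96), H2-Eb2 (0.96), Cd37 (0.96), H2-DMb2 (0.96) and Fcmr (0.96). Blk encodes a kinase of the B cell receptor, H2-Ob, H2-DMb2 and H2-Eb2 class II chains or their helpers. Over the 57 libraries the correlations of these 8 ran from 0.77 (H2-DMb2) to 0.86 (Chst3). The diet means subtracted there were those of all 70 libraries. The 13 libraries left out therefore still bear on these values, which are not likeness free of them.

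Other genes of the same biology, from lists chosen with earlier results known, were read in the same averaged comparison of WPI with CAS, in which 8.83% of all genes were called lower and 6.5% higher. Of 25 further B cell genes, 23 were called lower and 0 higher (median log2 fold change -0.96, against -0.01 over all genes). Tnfrsf13c, the receptor for the survival factor BAFF, was at -2.14 ± 0.37 (edgeR adjusted p = 2.14e-05). Of 18 genes of B cell receptor signalling, 14 were called lower and 0 higher (median -0.33). Among them was Lyn, the kinase that phosphorylates the signalling chains, at -0.29 ± 0.04 (edgeR adjusted p = 1.61e-08). Lyn followed the mean of the members only weakly, with a correlation of 0.31 over the 70 libraries. It was also called lower at FAT-20 (-0.43, edgeR adjusted p = 8.05e-06), where 0 of 9 members were. Over the 57 libraries the counts called lower were 7 of 25 and 4 of 18, where 2.91% of all genes were.

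Genes of the follicle around the B cells were counted in the same comparison, against the same 8.83% of all genes called lower. Of 7 tested genes of follicle stroma and lymphotoxin, 4 were called lower and 1 higher. Cxcl13, the chemokine that draws B cells into follicles, was at -1.71 ± 0.33 (edgeR adjusted p = 9.41e-05), with 2.93 to 23.8 CPM in the 13 libraries and 0.390 to 3.57 CPM in the other 57. Of 9 tested germinal centre genes, 1 was called lower (Mef2b, -0.95 ± 0.29, adjusted p = 0.0143) and 0 higher, a share near that of all genes. Of 7 tested genes of the epithelium over follicles, 2 were called lower, Ccl20 (-1.22 ± 0.22, adjusted p = 3.46e-05) and Tnfaip2 (-0.27 ± 0.07, adjusted p = 0.00353). Leaving out the 13 libraries, 0 of 6 stroma genes, 0 of 8 germinal centre genes and 1 of 7 genes of follicle epithelium were called lower. Of all genes, 2.91% were called lower in that fit.

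Markers of other immune cells were lower on WPI too, against 8.83% of all genes, and their part in the result was not tested. Plasma cell genes were called lower in 10 of 14, with a summed level of 5585 to 19540 CPM in the 13 libraries and 1273 to 21700 CPM in the other 57. Genes of naive and follicular T cells were called lower in 8 of 10, with sums of 31.3 to 100.2 CPM in the 13 and 20.9 to 47.2 CPM in the others. Genes of intraepithelial and cytotoxic lymphocytes were called lower in 10 of 11, with sums of 37.9 to 149.9 CPM in the 13 and 50.4 to 246.5 CPM in the others. The genes of this last list did not follow the members from library to library, with correlations to their mean from -0.37 (Gzmb) to 0.20 over the 70 libraries, and at FAT-20 9 of 11 were called lower where 0 of 9 members were. Macrophage and dendritic cell genes were called lower in 7 of 10 and pan-leukocyte genes in 6 of 6. Without the 13 libraries, 6 of 14, 0 of 9, 9 of 11, 3 of 10 and 6 of 6 genes of these lists were called lower. The share of all genes called lower there was 2.91%.

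Epithelium and tissue outside the mucosa were counted too. Averaged over fat levels, where 6.5% of all genes were called higher on WPI, smooth muscle genes were called in 0 of 10, enterocyte genes higher in 4 of 9, fat cell genes higher in 2 of 7 and red blood cell genes in 0 of 5. At FAT-20, where 2.66% of all genes were called higher, 2 of 2 ileum genes, 3 of 5 red blood cell genes and 1 of 9 enterocyte genes were called higher, and 0 of 10 smooth muscle genes in either direction. The summed fat cell level ran from 172.1 to 539.9 CPM in the 13 libraries and from 162.5 to 385.0 CPM in the others. In the others Cidec did not fall below 51.4 CPM and Pnpla2 not below 88.5 CPM. Adipoq had no read in 31 of the 70 libraries, so the sum by itself does not mark fat cells in a piece. Of 3 ileum genes 0 of 2 tested were called in the averaged comparison. The sum of the 3 reached 192.2 CPM in 1 of the 13 and 381.7 CPM in 1 of the others. The library with 192.2 CPM was WPI FAT-20 replicate 1, with 177.4 CPM of the ileum gene Fabp6 and 73.4 CPM of Adipoq. Without that library no member was called for FAT-55 against FAT-20 on WPI. None of 5 genes of the exocrine pancreas passed the filter, and their sum reached 23.95 CPM in 1 of the 13.

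In the liver of the same 70 mice, matched by the animal identifier in the labels, the 9 genes did not show the split between libraries. The highest level of a member was 1.83 times (Cd22) to 3.36 times (Ms4a1) its median there, against 8.13 times (Cd79a) to 153.3 times (Fcer2a) in the jejunum. Fcer2a ran from 0.157 to 1.35 CPM in the liver with a median of 0.624 CPM. For WPI against CAS averaged over fat levels, 0 of 9 were called in the liver (edgeR adjusted p from 0.144 to 0.937), where 14.7% of all genes were called in either direction; 1 of 9 had an unadjusted p under 0.05 and DESeq2 called 0.

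The difference between the tissues was tested on the per-mouse difference of log2 CPM, with limma. In the liver the log2 fold change of WPI from CAS fitted by edgeR ran from -0.03 (Ighm) to 0.26 (Cd79a). The limma differences used log2 CPM with a prior count of 2, so their sizes are not to be set against edgeR fold changes. The difference of WPI from CAS was lower in the jejunum than in the liver for 9 of 9 genes averaged over the fat levels, where 7.99% of all genes were called lower, and for 1 of 9 (Cd79b) at FAT-55, where 2.63% were. Without the 13 mice 5 of 9 were called averaged over the fat levels, where 3.68% of all genes were. Across the 70 mice, the Pearson correlation between jejunum and liver levels ran from -0.01 (Cr2) to 0.25 (Cd22). The mice of the 13 jejunum libraries had a median of 0.707 CPM of Fcer2a in the liver and the other 57 mice 0.602 CPM. Liver medians were also higher in the 13 mice for the other members, for example Cd79a (1.31 against 1.04 CPM), except for 2 genes. These were Ighm (13.9 against 14.5 CPM) and Cr2 (0.409 against 0.451 CPM). The differences between these sets of mice were not tested.

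**Figure D5:**
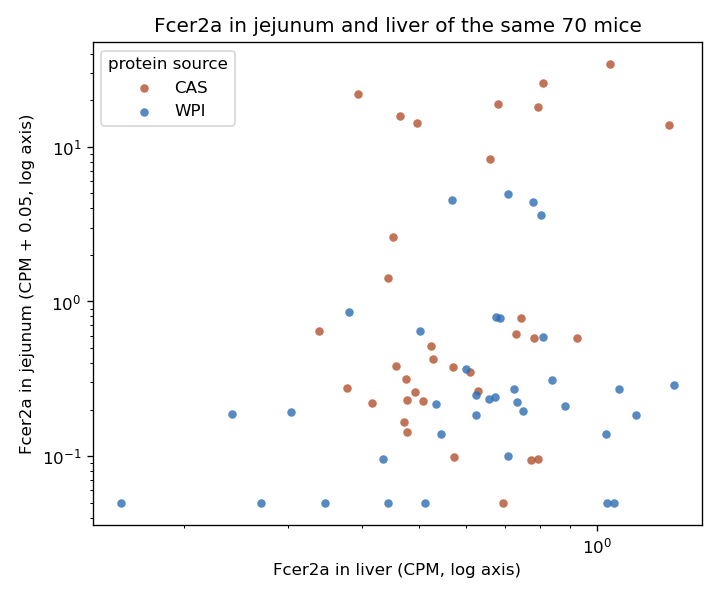
Fcer2a in the jejunum (CPM + 0.05, log axis) against Fcer2a in the liver (CPM, log axis) of the same 70 mice, CAS in orange and WPI in blue. Jejunum levels span 0 to 34.2 CPM and liver levels 0.157 to 1.35 CPM. The 13 mice with at least 8 CPM of Cd37 in the jejunum, which have the highest jejunum levels, span 0.395 to 1.32 CPM in the liver.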

How the data were processed

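RNA was extracted from jejunum and liver with the RNeasy kit and sequenced, per the labels' protocols. Reads were trimmed with cutadapt and Trim Galore 0.61 and aligned with STAR to GRCm38, and DESeq2 1.24.0 is named too, per the submitters' processing notes. The STAR version, the annotation and the strand setting are not given in the sources used here. The deposited values are raw read counts per gene for each library. Rows that name no gene were left out of library sizes. They held 5.23% of the jejunum total as ambiguous, 8.0% as multimapping, 6.34% as outside features and 3.45% as unmapped reads.

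Symbols came from GENCODE M21 (55450 of 55536 identifiers matched). The members and the 17 gene lists were chosen with earlier results of these data known. Jejunum counts were fitted with edgeR 4.0.16 (filterByExpr, TMM, quasi-likelihood test, 1 coefficient for each diet over all 70 libraries) in R 4.3.3 for 12 comparisons, with Benjamini-Hochberg adjustment over 16992 genes and a threshold of 0.05. Alternatives were DESeq2 1.42.0, limma 3.58.1 (trend with prior count 2, voom with stem as a random effect, voom with quality weights), another scaling, no filter, sums by stem, and leaving out libraries or stems. The 13 libraries with at least 8 CPM of Cd37, the single libraries and the test between tissues were chosen after seeing the data. Named genes were the 9 members, up to 3 per list with the smallest adjusted p for the averaged comparison, of which the text gives some, and the 10 genes most like the members, of which 2 are not reported here. Likeness used log2(CPM + 0.1). Depth was 17.5 to 23.8 M reads on genes in jejunum and 21.0 to 41.0 M in liver. P-values rest on the spread between mice, or between stems where reads were summed by stem, and mice of 1 stem may not be independent. The edgeR script was tested on simulated data. Hypothalamus was not analysed here.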

Additional observations from a re-analysis of the deposited data

Results flagged for a closer look

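The fitted difference of WPI from CAS, averaged over the fat levels, differed between jejunum and liver of the same mice for all 9 genes, by limma on the per-mouse difference of log2 CPM. The difference, jejunum minus liver, was -1.10 for Cd79a, -1.18 for Cd79b, -0.99 for Ighm, -0.97 for Cd22, -1.49 for Ms4a1, -1.54 for Ighd, -1.57 for Pax5, -1.72 for Fcer2a and -1.997 for Cr2, with adjusted p from 0.000266 (Cd79a) to 0.0277 (Ighd). In the liver no member was called by edgeR for the protein source. Without the 13 mice whose jejunum library held at least 8 CPM of Cd37, the differences ran from -0.39 (Cd22) to -1.03 (Cr2) and 5 of 9 were called, namely Cd79a, Cd79b, Ms4a1, Cr2 and Cd22. Those mice were chosen by a gene that follows the members, so these values are a description. No single library was tested as an outlier within its diet.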

How the results depend on the processing

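For WPI against CAS averaged over the fat levels, 9 of 9 members were called with edgeR, DESeq2, another scaling, no filter, sums by stem, limma with a trend, and without the top library of each diet. The count was 5 with voom and quality weights, 3 with voom and stem as a random effect (correlation within stems 0.114), and 4 without the 13 libraries with at least 8 CPM of Cd37. It stayed 9 in each of 70 fits without 1 library and 24 fits without 1 stem. At FAT-55 the count of 9 became 1 with limma and a trend, and 0 with sums by stem, with either voom fit and without the 13 libraries. Leaving out a library or a stem gave 8 to 9 there, Cd22 being lost without CAS FAT-55 replicate 7 (-1.60, edgeR adjusted p = 0.0733). At FAT-20 leaving out a stem gave 0 to 1, and at FAT-40 1 gene was called without the 13 libraries. On WPI, where FAT-55 was set against FAT-20, the count of 2 became 5 with DESeq2, 1 without the top library of each diet, 7 without the 13 libraries and 0 with no filter, sums by stem, limma with a trend and either voom fit. Leaving out a library gave 0 to 4 and a stem 0 to 3. Without the 13 libraries, 3 members were called for FAT-40 over FAT-20 on WPI, where 29% of all genes were, and 2 for FAT-55 over FAT-20 on CAS, where 25.1% were. Signs turned in that setting for Pax5 at FAT-20 (0.12) and for Cd22 in FAT-55 over FAT-20 on WPI (0.035). The 13 libraries were chosen by a gene that follows the members, so counts without them are descriptions. The cause of the other changes was not tested. No paired analysis was possible because the labels give no replicate numbers that run across diets. Mean levels moved by less than 1 SD under the other scalings, which is a wide measure where the SD exceeds the mean. Ighm on CAS FAT-20, for example, had a mean of 50.9 CPM with an SD of 66.2 CPM. Under the other scalings that mean was 50.05 and 54.99 CPM. Low genes are limited by depth: Fcer2a and Pax5 had a median of 5 and 7 reads in a library.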
